A study of Rattus norvegicus with 36 samples.

Results

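Cytochrome P450 enzymes were followed in rat kidney after several injuries and control treatments. The genes were all those whose symbol in the array annotation begins with Cyp and a digit, with the vitamin D hydroxylases Cyp27b1 and Cyp24a1 left out. This gave 34 of the 6394 genes with a symbol, read by 39 probes, and a gene with 2 probes was represented by the brighter one. The genes were picked by symbol, and measured signal over all rats decided only which probe stood for a gene with 2 probes. RNA came from the kidneys of male rats aged 6 to 8 weeks, per the labels, and was hybridised to 1-colour CodeLink arrays. There were 36 arrays of 31 rats in 9 groups, and 5 rats had 2 arrays, which were averaged.

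The 5 normal rats had no treatment given in the labels. Ischemia was 40 min of clamping of both kidneys followed by reperfusion for 2 h (4 rats) or 8 h (3 rats). In a further 3 rats with 2 h of reperfusion, the peptide hormone αMSH was given at 50 µg per rat. Mercuric chloride, a proximal tubule poison, was injected at 4 mg/kg and kidneys were taken after 2 h (3 rats) or 8 h (3 rats). Cisplatin, a platinum drug toxic to tubules, was injected at 20 mg/kg for 2 h (3 rats). Sham surgery of 40 min was followed by 8 h of recovery (3 rats). Volume depletion was furosemide at 20 mg/kg at 0 h and 8 h with a sodium-deficient diet, and kidneys were taken at 24 h (4 rats). The labels name no transgene or deletion, and whole kidney pieces were used, so fewer cells of a type and less RNA per cell cannot be told apart.

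Cytochrome P450 enzymes are heme proteins of the endoplasmic reticulum or mitochondria that insert oxygen into their substrates with electrons from P450 reductase or ferredoxin. In the kidney the Cyp4 family and the related Cyp2 epoxygenases turn arachidonic acid into hydroxylated and epoxidised eicosanoids, which act on renal vessels and on tubular sodium transport. Other members oxidise drugs, solvents, steroids, sterols or retinoic acid. Many of them are under the control of nuclear receptors or of the aryl hydrocarbon receptor, Ahr.

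Levels are log2 of the signal divided by the median signal of the array, so 0 is the array median. Signals below 0.1 of the median were set to that floor, which is -3.32 on this scale. The arrays were of 2 lots. Rats of the ischemia, αMSH, volume depletion and 2 h mercuric chloride groups were set against normal rats 1 to 3, and rats of the 8 h mercuric chloride, cisplatin and sham groups against normal rats 11 and 12. The labels do not name the lot of an array, so this division is an assumption. The lots differed for some members in normal rats: Cyp2a2 was 0.69 and Cyp2u1 0.58 higher in normal rats 11 and 12 (log2), and Cyp7b1 was 0.75, Cyp26b1 0.73 and Cyp2e1 0.61 higher in normal rats 1 to 3. Cyp2c11 had the means -0.112 in normal rats 1 to 3 and -2.05 in rats 11 and 12 (difference -1.94). A change is called where limma's adjusted p over all tested probes is under 0.05. The values deposited for sham rat 3 stood 2 lines away from their probe names and were moved back. One array, that of rat 3 with 8 h of ischemia, stood apart, with 1.65% of probes at the floor against 4.34% to 12.9% on the others and a correlation of 0.923 with the mean of the other arrays. The other 8 h ischemia arrays were at 0.9637 to 0.9668, and the lowest outside that group were the first array of rat 1 with volume depletion (0.973) and normal rat 1 (0.979). The labelled tissue was borne out by proximal tubule markers: all 7 with a probe were above the floor in every rat. Of 4 liver markers, Alb was at the floor in every normal rat, Apob was above it in every rat, and Apoa1 had a mean normal level of 0.445 times the array median. Of the adrenal marker list 1 gene, Scarb1, had a probe, and Cyp11b1, which makes corticosterone in the adrenal cortex, was at the floor in 29 of 31 rats.

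In normal kidney the P450 probes ranged from the floor to among the brightest on the array. Cyp4a3, a fatty acid ω-hydroxylase of arachidonic acid, gave 7.12, 6.47 and 6.84 in normal rats 1 to 3 and 6.75 and 6.64 in rats 11 and 12. Cyp2e1, which oxidises ethanol and small solvents, gave 5.27, 4.41 and 4.64 in normal rats 1 to 3 and 4.26 and 4.06 in rats 11 and 12. A further 8 members had a normal mean above the array median: Cyp4a8, Cyp4f6, Cyp51, Cyp17a1, Cyp4b1, Cyp2g1, Cyp2a2 and Cyp2u1. For Cyp17a1 and Cyp2a2 this holds for the brighter probe only, as the second probe was near the floor. Probe signal also depends on the probe, so these levels give no order between genes. Of the 34 members, 24 were above the floor in every rat in which they were measured and 10 in only some rats. The test needed 3 rats above the floor, which 29 members met. The other 5 were above it in 1 or 2 rats: Cyp1a2, Cyp2a3, Cyp3a18, Cyp7a1 and Cyp11b1, whose best known sites are liver, nasal mucosa or adrenal gland. Closely related genes such as Cyp4a3 and its near copy Cyp4a2, or members of the Cyp2c and Cyp3a clusters, may bind 1 probe, so these names are uncertain.

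**Figure D1:**
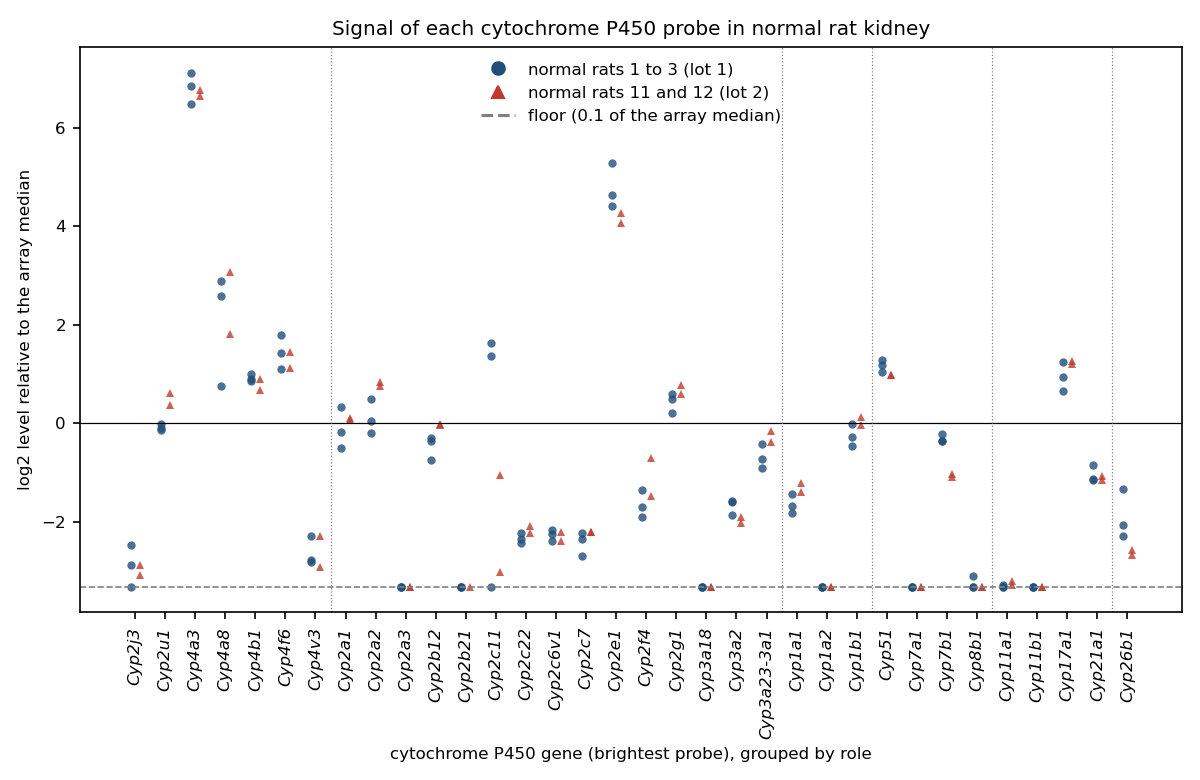
Signal of each of the 34 P450 probes in the 5 normal rats, as log2 of the level relative to the array median, grouped by role (dotted lines). Points of lot 1 are circles, points of lot 2 triangles, and the dashed line is the floor at 0.1 of the median. Cyp4a3 lies between 6.47 and 7.12 in all 5 rats, and Cyp2c11 runs from the floor to 1.63.

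Between groups, 7 of the 29 tested members varied by limma's F test over the 8 changes from normal (24.1%, against 51.1% of all probes): Cyp1a1, Cyp1b1, Cyp2e1, Cyp2u1, Cyp4f6, Cyp7b1 and Cyp26b1. Promoter sequences were taken from RefSeq for build GRCr8, where 26 of the 34 members had an entry. Those of 5 of the 7 varying genes are printed here as the 250 bases before the start, in the direction of the gene, because these genes moved between groups. Cyp7b1 and Cyp1a1 had no entry. Capitals mark matches, on either strand, to 8 motifs: the Ahr core GCGTG, the TATA box TATAAA, the CCAAT box CCAAT, the GC box GGGCGG, the AP-1 site TGANTCA, the Hnf4 core CAAAGTCCA, the cAMP response element TGACGTCA and the antioxidant response element TGACNNNGC. Matches can overlap, and the AP-1 and antioxidant matches in Cyp26b1 share bases.
Cyp4f6 (chr7:12708379-12708628, minus strand): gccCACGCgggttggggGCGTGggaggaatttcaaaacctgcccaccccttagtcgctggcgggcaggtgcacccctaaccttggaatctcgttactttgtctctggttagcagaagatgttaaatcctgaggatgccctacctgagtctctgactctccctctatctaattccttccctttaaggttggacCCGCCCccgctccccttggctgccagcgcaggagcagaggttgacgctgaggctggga
Cyp2u1 (chr2:222540990-222541239, minus strand): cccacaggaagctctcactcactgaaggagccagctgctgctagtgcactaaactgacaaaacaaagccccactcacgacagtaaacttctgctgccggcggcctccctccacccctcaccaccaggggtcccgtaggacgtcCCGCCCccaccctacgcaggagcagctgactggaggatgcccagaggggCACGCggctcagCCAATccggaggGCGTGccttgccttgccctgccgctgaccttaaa
Cyp2e1 (chr1:205269717-205269966, plus strand): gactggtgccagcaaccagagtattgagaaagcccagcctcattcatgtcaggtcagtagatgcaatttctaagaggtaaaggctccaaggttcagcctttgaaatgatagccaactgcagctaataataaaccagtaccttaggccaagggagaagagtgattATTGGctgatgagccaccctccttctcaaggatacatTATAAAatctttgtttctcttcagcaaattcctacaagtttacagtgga
Cyp1b1 (chr6:21094315-21094564, plus strand): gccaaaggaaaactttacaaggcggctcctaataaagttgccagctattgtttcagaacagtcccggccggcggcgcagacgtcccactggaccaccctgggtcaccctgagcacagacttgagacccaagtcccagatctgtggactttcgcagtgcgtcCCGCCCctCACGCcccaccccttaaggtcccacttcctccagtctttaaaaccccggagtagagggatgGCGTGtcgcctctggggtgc
Cyp26b1 (chr4:118616177-118616426, minus strand): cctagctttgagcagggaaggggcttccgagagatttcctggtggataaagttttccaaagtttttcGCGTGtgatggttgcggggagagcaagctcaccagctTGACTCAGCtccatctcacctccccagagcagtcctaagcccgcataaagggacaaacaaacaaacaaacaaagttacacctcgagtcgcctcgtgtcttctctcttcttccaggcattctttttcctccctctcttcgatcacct
The Ahr core was in 4 of these 5 windows, Cyp4f6, Cyp2u1, Cyp1b1 and Cyp26b1, in 5 of the 26 members with an entry (19.2%) and in 25.9% of all 33469 promoters. Thus it was in windows of genes that fell and of genes that rose. The GC box was in Cyp4f6, Cyp2u1 and Cyp1b1, in 7 of the 26 members (26.9%) and in 30.5% of all promoters. Cyp2e1 was the only one of the 5 with a TATA box, which 8 of the 26 members (30.8%) and 12.9% of all promoters held. The CCAAT box was in Cyp2e1 and Cyp2u1, in 34.6% of the members and in 34% of all promoters. The AP-1 site was in Cyp26b1 alone among the 26 members, and in 6.34% of all promoters. The antioxidant response element was in Cyp26b1, Cyp4b1 and Cyp8b1 (11.5% of the members, 10.1% of all promoters). The Hnf4 core was in Cyp3a2 and Cyp3a23-3a1 (7.69%, against 0.338% of all promoters), and the cAMP response element in none of the 26 (1.59% of all promoters). The median GC content was 46.8% over the 26 members and 51.2% over all promoters. A match is a stretch of letters, not a measured binding site.

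Against normal kidney, the 8 h ischemia group held most of the calls. There, 8 of 29 members were called (27.6%), 4 higher and 4 lower, against 41.6% of all 9491 probes tested (20.7% higher and 20.8% lower). Cyp4f6, Cyp2e1, Cyp2u1 and Cyp3a2 fell, and Cyp7b1, Cyp1b1, Cyp26b1 and Cyp2b21 rose. Without rat 3, whose array stood apart, 8 were called as well, but Cyp26b1, Cyp2b21 and Cyp3a2 were replaced by Cyp2f4, Cyp4a3 and Cyp51. The share of all probes called without rat 3 is not given here, so nothing particular to the members is read from that count. At 2 h of ischemia 2 members were called (6.9%, against 14.7% of probes). Cyp1b1 was higher (as were 7.34% of probes) and Cyp2u1 lower (as were 7.35%). After mercuric chloride 1 member was called at 2 h, Cyp2e1, which fell (3.45%, against 7.68% of probes, 3.07% higher and 4.61% lower). At 8 h 1 was called, Cyp2u1, which also fell (3.45%, against 10.9% of probes, 5.25% higher and 5.63% lower). No member was called after ischemia with αMSH (13.2% of probes), cisplatin (0.58%), sham surgery (0.348%) or volume depletion (0.169%). By unadjusted limma p under 0.05, the members were 2, 0, 2 and 1 of 29 in these 4 groups, where 26.1%, 6.11%, 5.66% and 5.97% of all probes were. In each comparison with a call, the share of members called was below the share of all probes. The median change of the members was -0.12 after 8 h of ischemia and 0.01 over all probes, and the median size of change was 0.258 against 0.365.

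**Figure D2:**
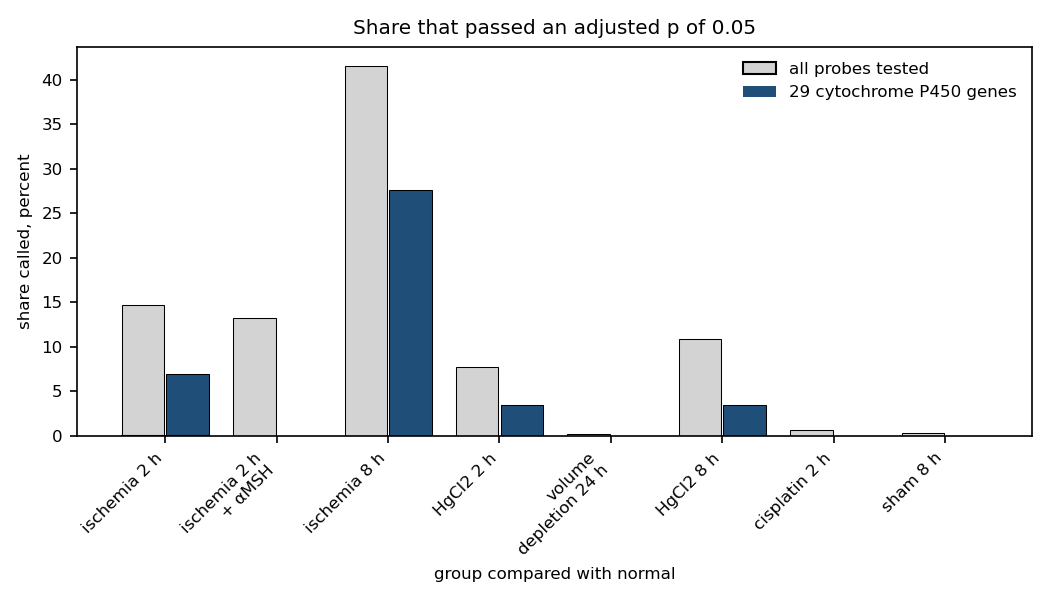
Share called in each comparison with normal kidney, in percent, for all probes tested (grey) and for the 29 tested P450 genes (blue). After 8 h of ischemia the shares were 41.6% and 27.6%, and the blue bar is at 0 for ischemia with αMSH, cisplatin, sham surgery and volume depletion.

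**Figure D3:**
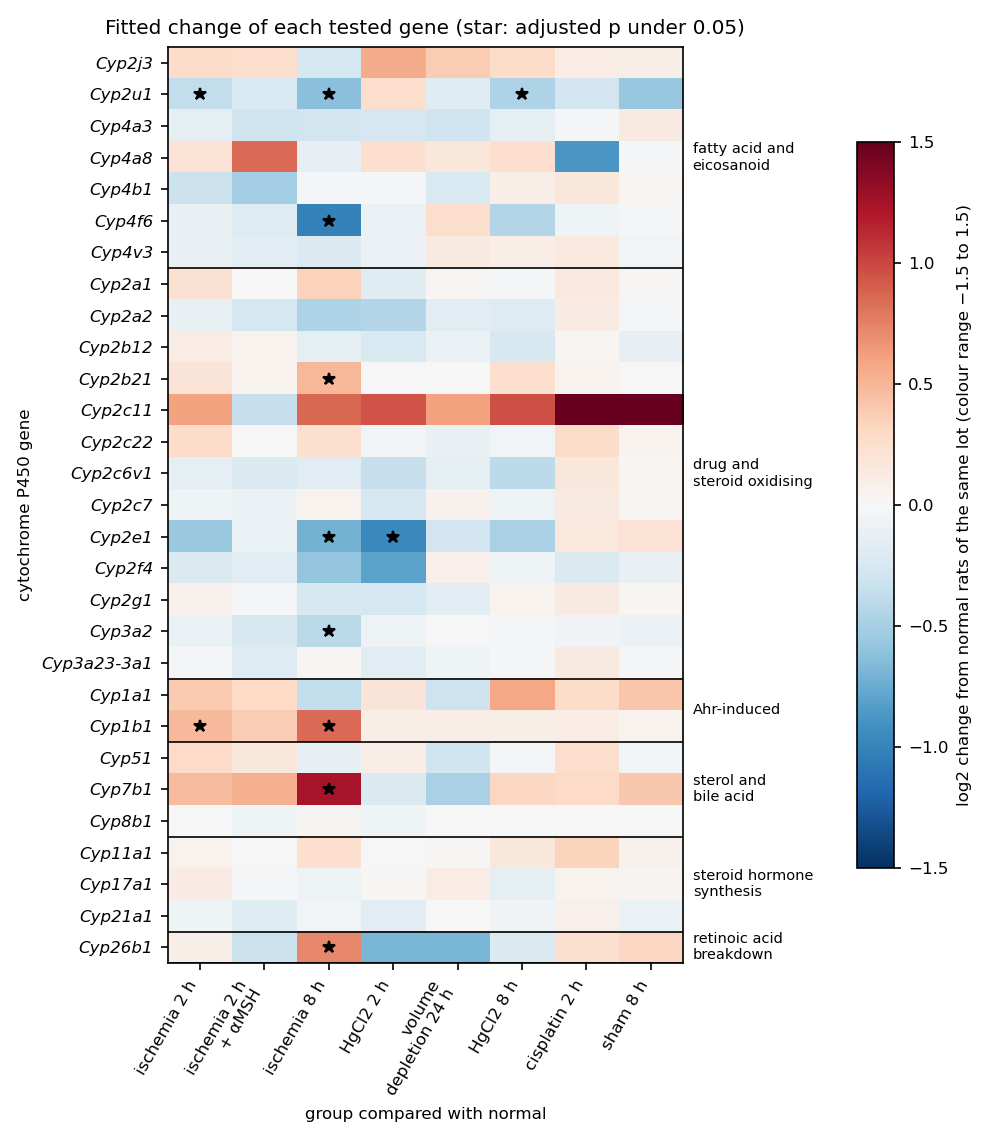
Fitted log2 change of the 29 tested P450 genes (rows, by role) in each of the 8 groups against normal rats of the same lot (columns), where blue is lower, red is higher and a star marks an adjusted p under 0.05. Stars are concentrated in the 8 h ischemia column, with 8, and the unstarred dark cells of Cyp2c11 go with its large spread between rats.

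Among the fatty acid and eicosanoid enzymes (7 members, all tested), 2 fell after 8 h of ischemia and none rose. Cyp4f6, of the family that hydroxylates arachidonic acid and leukotrienes, was at 0.46, 0.40 and 0.39 in the 3 rats of that group. It was at 1.09, 1.42 and 1.79 in normal rats 1 to 3, so all 3 ischemic rats lay below every normal rat and close to each other. It fell by 1.02 on the log2 scale (SE 0.15, adjusted p = 4.93e-06), which is 2.03-fold lower. At 2 h of ischemia Cyp4f6 was still at 1.24, 1.34, 1.53 and 1.16, within the normal range, and the fall between 2 h and 8 h was itself called (-0.90, SE 0.14, adjusted p = 1.57e-05). It was also called against the sham rats at 1.32, 1.28 and 1.19 (-0.998, SE 0.22, adjusted p = 0.00181), a comparison that runs through the normal rats of both lots. With 8 h of mercuric chloride Cyp4f6 was at 0.61, 0.73 and 1.16, and its change of -0.45 was not called (SE 0.17, adjusted p = 0.0893). The 4 volume depletion rats were at 1.57, 1.65, 1.81 and 1.77, a change of 0.27 that was not called.

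Cyp2u1, a hydroxylase of long-chain fatty acids, was called in 3 comparisons with normal, more than any other member. In normal rats 1 to 3 it was at -0.03, -0.10 and -0.13. After 2 h of ischemia the rats were at -0.52, -0.59, -0.19 and -0.55, all below the normal rats, with rat 3 nearest to them, and Cyp2u1 fell by 0.38 (SE 0.12, adjusted p = 0.0393). After 8 h of ischemia they were at -0.67, -0.89 and -0.59, and it fell by 0.63 (SE 0.13, adjusted p = 0.00037). The 3 mercuric chloride rats at 2 h were at 0.38, -0.00 and 0.15, above every ischemic rat of the same time, and the difference of ischemia from mercuric chloride at 2 h was called (-0.64, SE 0.12, adjusted p = 0.000632). At 8 h of mercuric chloride the rats were at 0.05, -0.16 and 0.21 against 0.37 and 0.62 in normal rats 11 and 12, a fall of 0.46 (SE 0.15, adjusted p = 0.0415). The sham rats on the same lot were at -0.05, -0.13 and -0.04, below both normal rats and within the range of the mercuric chloride rats, with a change of -0.57 that was not called (SE 0.15, adjusted p = 0.118). Against these sham rats the 8 h mercuric chloride group differed by 0.11, which was not called. The call against normal was lost without normal rat 11 or 12 or mercuric chloride rat 1 or 2 (changes between -0.587 and -0.336), with a floor of 0.05 (adjusted p = 0.0513) and with no lot term (-0.113). The call at 2 h of ischemia was lost without any 1 of normal rats 1, 2 or 3 or of ischemia rats 1, 2 or 4 (changes between -0.47 and -0.33 with each rat left out in turn), and with the first array of each rat only (-0.343, adjusted p = 0.0671). The call at 8 h of ischemia held with each rat left out (-0.69 to -0.54).

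The other 5 members of this class were not called in any of the 16 comparisons. Cyp4a3 had a change of -0.275 after 8 h of ischemia (95% interval -0.645 to 0.096), with the 3 rats at 6.21, 6.44 and 6.96, of which rat 3 was in the normal range. Without ischemia 8 h rat 3 its change was -0.49 and was called (SE 0.18, adjusted p = 0.0256). Cyp4b1, expressed in kidney and lung, had a change of -0.50 after ischemia with αMSH (SE 0.18, adjusted p = 0.0623), with rats at 0.56, 0.33 and 0.33 below normal rats 1 to 3 at 0.99, 0.85 and 0.89. Cyp2j3, an epoxygenase, had a change of 0.56 after 2 h of mercuric chloride (adjusted p = 0.174), with the groups overlapping. Cyp4v3 and Cyp4a8 also had no call.

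**Figure D4:**
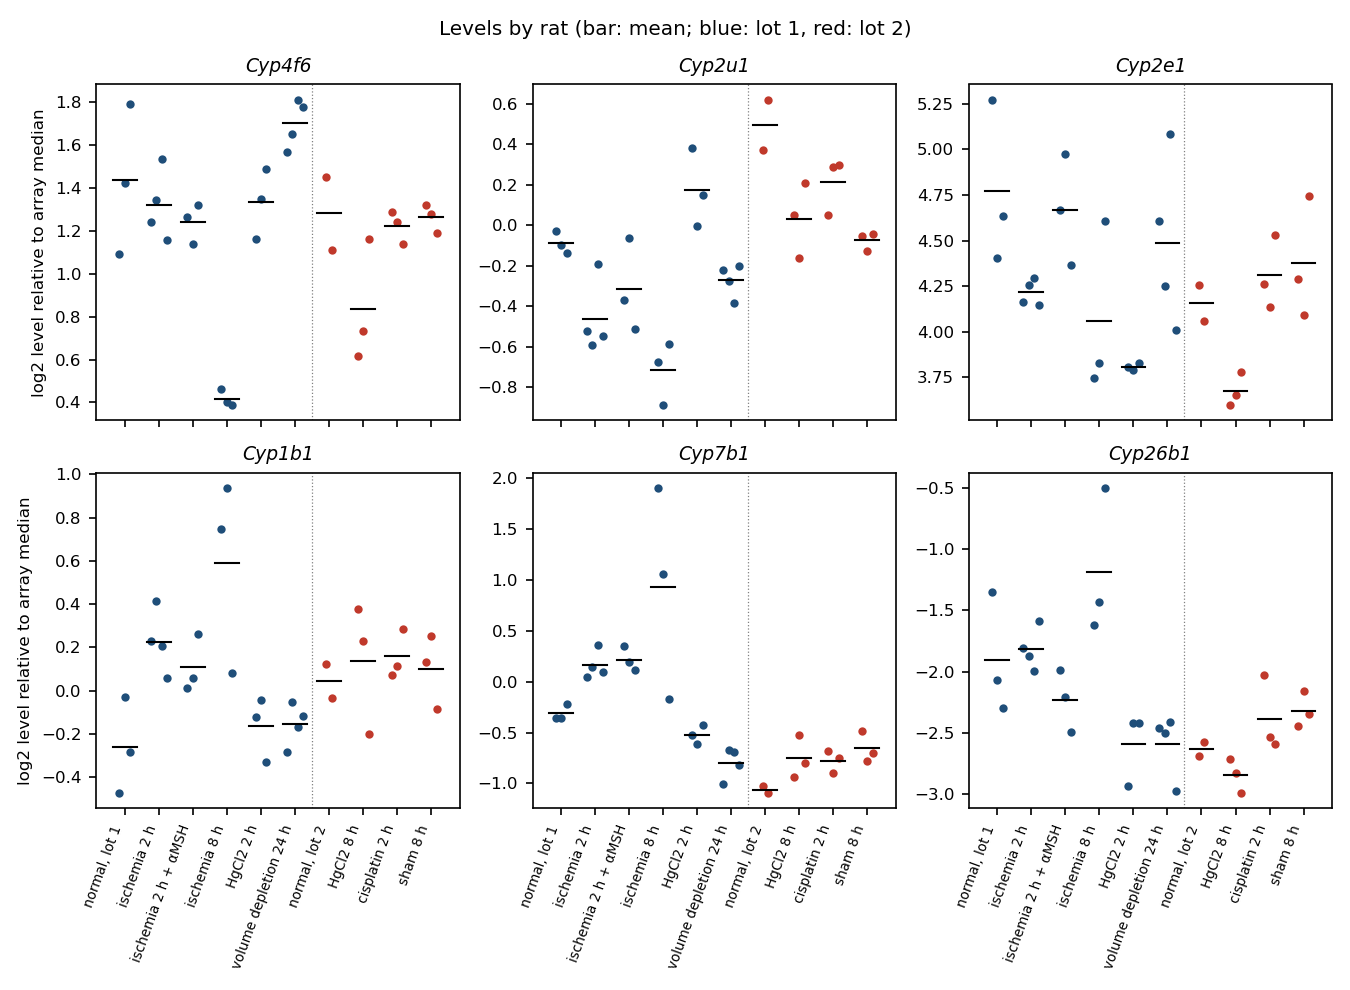
Level of 6 P450 genes in each rat (points) as log2 relative to the array median, with group means (bars), lot 1 in blue and lot 2 in red to the right of the dotted line. The 3 rats with 8 h of ischemia lie between 0.39 and 0.46 for Cyp4f6, below all other rats, while for Cyp7b1 and Cyp26b1 they are spread widely.

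Among the drug and steroid oxidising enzymes (15 members, 13 tested), 2 fell and 1 rose after 8 h of ischemia. Cyp2e1 was at 3.81, 3.79 and 3.83 in the 3 rats with 2 h of mercuric chloride, below normal rats 1 to 3 and nearly identical to each other. It fell by 0.96 (SE 0.24, adjusted p = 0.0151), or 1.95-fold. The rats with 8 h of ischemia were at 3.75, 3.83 and 4.61, where rat 3 lay within the normal range, and Cyp2e1 fell by 0.71 (SE 0.24, adjusted p = 0.0215). Without rat 3 that change was -0.985 (adjusted p = 0.00195), and the call was lost without ischemia 8 h rat 1, ischemia 8 h rat 2 or normal rat 1, the last giving -0.46, and with no lot term (-0.467). The call after mercuric chloride was lost without normal rat 1 (-0.71) or mercuric chloride rat 1. The 4 rats with 2 h of ischemia were at 4.16, 4.26, 4.30 and 4.15, all below normal rats 1 to 3, with a change of -0.555 that was not called (SE 0.23, adjusted p = 0.111). At 8 h of mercuric chloride they were at 3.60, 3.65 and 3.78, below both normal rats of that lot, with a change of -0.48 that was not called (SE 0.27, adjusted p = 0.326). A second, separate Cyp2e1 probe was measured in 20 rats, all of lot 1, and so was not tested. It read 4.81, 3.98 and 4.21 in normal rats 1 to 3, 3.36, 3.26 and 3.28 after 2 h of mercuric chloride and 3.35, 3.45 and 3.80 after 8 h of ischemia. On that probe all 6 of these treated rats lay below the 3 normal rats. So did the 4 rats with 2 h of ischemia, at 3.645, 3.873, 3.795 and 3.536. The αMSH rats, at 4.11, 4.471 and 3.928, overlapped the normal rats. The volume depletion rats, at 4.066, 3.81, 4.695 and 3.63, overlapped them as well.

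Cyp3a2, a steroid and drug hydroxylase, was at -2.10, -2.06 and -2.13 after 8 h of ischemia and at -1.86, -1.60 and -1.59 in normal rats 1 to 3. The groups did not overlap, and Cyp3a2 fell by 0.41 (SE 0.15, adjusted p = 0.0265), a call lost without normal rat 2 or 3 or ischemia rat 1 or 3, and with no lot term (-0.295). Cyp2b21, a Cyp2b form described outside the liver, was at the floor in normal rats 1 to 3 and at -3.20, -3.03 and -2.25 after 8 h of ischemia. It rose by a fitted 1.41-fold (0.495 on the log2 scale, SE 0.17, adjusted p = 0.0234), most of it from rat 3. Without rat 3 the change was 0.21 and was not called (adjusted p = 0.213). The call was also lost without normal rat 2 or 3, and with the first array of each rat only (0.417). Other dim members were above the floor in rat 3 and at it in rats 1 and 2 of this group. In rat 3 these were Cyp11a1 (-2.525), Cyp11b1 (-2.271), Cyp2a3 (-2.942), Cyp3a18 (-2.99), Cyp7a1 (-3.218) and Cyp8b1 (-2.998), while Cyp1a2 was at the floor. The part of that array in the rise of Cyp2b21 was not tested. Cyp2f4, which oxidises naphthalene in lung and liver, was at -2.72, -2.69 and -1.32 after 8 h of ischemia against -1.35, -1.90 and -1.71 in normal rats 1 to 3. Its change of -0.59 was not called (SE 0.29, adjusted p = 0.112), and without rat 3 it was -1.05 (SE 0.25, adjusted p = 0.00148). After 2 h of mercuric chloride Cyp2f4 was at -2.51, -2.65 and -2.22, all below the normal rats, with a change of -0.81 that was not called (SE 0.29, adjusted p = 0.0941). The remaining tested members of this class (Cyp2a1, Cyp2a2, Cyp2b12, Cyp2c6v1, Cyp2c7, Cyp2c11, Cyp2c22, Cyp2g1 and Cyp3a23-3a1) had no call in the 16 comparisons. Of the 5 members with 2 probes, Cyp17a1, Cyp2a2, Cyp2b12 and Cyp3a23-3a1 had a second probe near or at the floor, so their pairs of probes disagreed in level.

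Cyp2c11 and Cyp4a8 differed from rat to rat within groups far more than almost all other probes. Cyp2c11, the main male-specific P450 of rat liver, ran from the floor in normal rat 2 to 2.72 in volume depletion rat 1, a 66.1-fold range. It was at 1.63, -3.32 and 1.35 in normal rats 1 to 3, at -0.91, 0.79 and 2.61 after 2 h of mercuric chloride and at 2.72, -0.65, -0.75 and 0.65 after volume depletion. High and low rats stood side by side in most groups. Its residual SD within groups was 1.52, above 99.9% of tested probes, whose median was 0.22. Cyp4a8, a renal fatty acid ω-hydroxylase, had a residual SD of 1.06 (above 99.5% of probes) and a 10.2-fold range, from 0.26 in volume depletion rat 1 to 3.61 in ischemia 2 h rat 3. In the 2 arrays of the same rat, by contrast, Cyp2c11 differed by at most 0.65 and Cyp4a8 by at most 0.70, with medians of 0.17 and 0.16 over 5 rats (0.13 over all probes). For Cyp2c11 both arrays of normal rat 2 were at the floor, which fixed their difference at 0. Those of normal rat 11 were near the floor (-2.945 and -3.117). The rats that were low for 1 gene were not always low for the other: volume depletion rat 1, whose first array had one of the lower correlations given above, had the highest Cyp2c11 and the lowest Cyp4a8, while mercuric chloride 2 h rat 3 was high for both (2.61 and 3.09). Neither gene varied between groups by the F test. Fitted changes of 2.80 (sham) and 2.40 (cisplatin) for Cyp2c11 were not called (adjusted p = 0.824 for sham and 0.91 for cisplatin). Normal rats 11 and 12, against which those 6 rats were set, were at -3.03 and -1.06. Over all rats the liver markers ranged from 0.1 to 0.3075 times the array median for Alb, 0.1 to 0.564 for Fgb, 0.167 to 0.470 for Apob and 0.1 to 1.403 for Apoa1. All 4 were above the floor in every 8 h ischemia rat. Their part in these ranges was not tested.

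**Figure D5:**
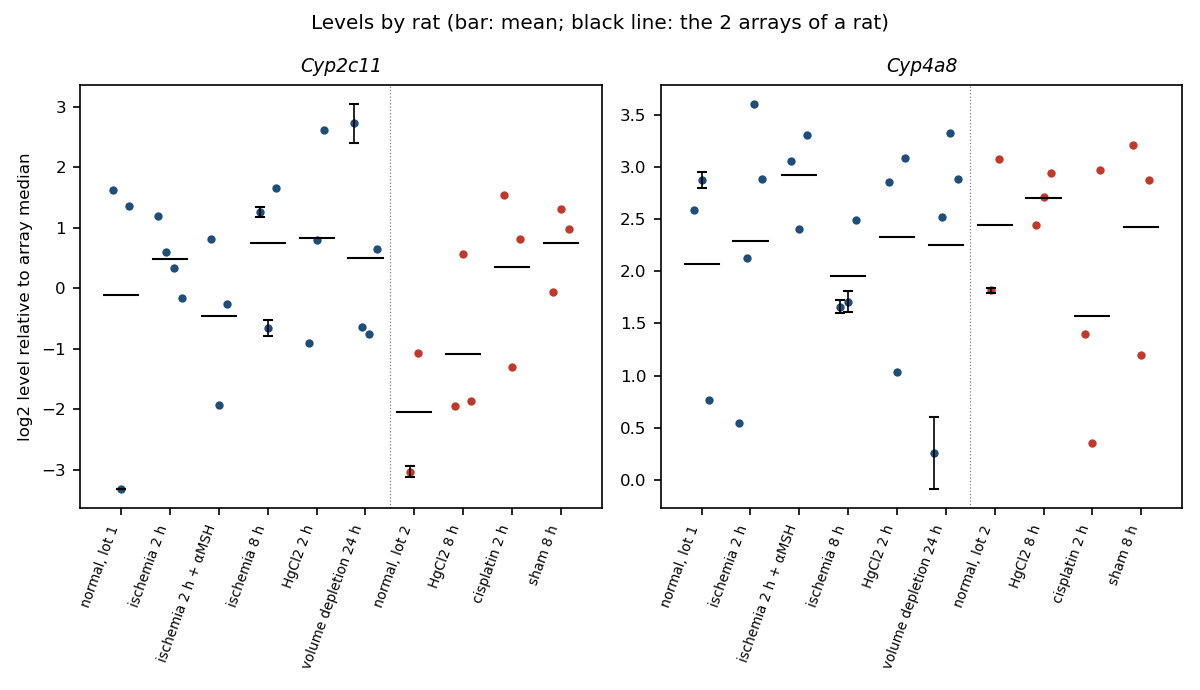
Level of Cyp2c11 and Cyp4a8 in each rat (points) as log2 relative to the array median, with group means (bars) and, for the 5 rats with 2 arrays, a black line that spans both arrays. Rats of 1 group spread over several log2 units while the arrays of 1 rat lie within 0.65 for Cyp2c11 and 0.70 for Cyp4a8.

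Of the Ahr-induced enzymes (3 members, 2 tested), Cyp1b1 rose after ischemia. Cyp1b1 oxidises estrogens, retinoids and polycyclic hydrocarbons. It was at -0.47, -0.03 and -0.28 in normal rats 1 to 3, at 0.23, 0.41, 0.20 and 0.06 after 2 h of ischemia and at 0.75, 0.94 and 0.08 after 8 h. All ischemic rats were above the 3 normal rats, and the 8 h rats ran from the low to well above the high end of the 2 h range. It rose by 0.49 at 2 h (SE 0.16, adjusted p = 0.0414) and by 0.85 at 8 h (SE 0.17, adjusted p = 0.000267, 1.80-fold), and the difference between the times, 0.36, was not called (adjusted p = 0.0773). Against sham at 8 h (0.13, 0.25 and -0.08) the difference of 0.795 was called (SE 0.26, adjusted p = 0.026). The 8 h call against normal held with each rat left out (0.68 to 1.10), while the 2 h call was lost without normal rat 1 or 3 or ischemia rat 1, 2 or 3, with no lot term (0.365) and with the first array of each rat only (0.479). The call against sham was lost without normal rat 1, 11 or 12, ischemia rat 1 or 2, or sham rat 3. With αMSH the rats were at 0.01, 0.06 and 0.26, and the change of 0.37 was not called (adjusted p = 0.166).

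Cyp1a1, the prototype Ahr target, was not called against normal in any group. It was at -1.17, -1.27, -1.08 and -1.495 after 2 h and at -2.45, -1.74 and -1.87 after 8 h of ischemia. With the arrays of a rat averaged the times did not overlap, and the difference of -0.77 was called (SE 0.21, adjusted p = 0.00478). The 2 arrays of rat 2 at 8 h were at -1.419, within the 2 h range, and -2.07. Rat 1 at 8 h was measured on 1 of its 2 arrays. Normal rats 1 to 3, at -1.44, -1.68 and -1.83, overlapped both times, and neither time was called against them. After 8 h of mercuric chloride Cyp1a1 was at -0.46, -0.85 and -0.86, above both normal rats of that lot, as were the sham rats at -0.54, -1.09 and -1.03, and its change of 0.58 was not called (adjusted p = 0.153). It was measured in 2 of the 3 rats with 2 h of mercuric chloride. The Ahr core was in the printed promoter of Cyp1b1, in those of Cyp4f6, Cyp2u1 and Cyp26b1, and in 25.9% of all promoters. The part of Ahr in these changes was not tested. Of 4 other Ahr targets on the arrays, after 8 h of ischemia Nqo1, a quinone reductase that Nrf2 also induces, rose by 1.82 and the glucuronosyltransferase Ugt1a6 fell by 0.55.

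Among the sterol and bile acid enzymes (4 members, 3 tested), Cyp7b1 had the largest called change of any member. Cyp7b1 hydroxylates oxysterols and neurosteroids. It was at -0.35, -0.36 and -0.22 in normal rats 1 to 3 and at 1.91, 1.06 and -0.17 after 8 h of ischemia, where each rat was above all 3 normal rats but rat 3 only slightly so. It rose by 1.24 (SE 0.27, adjusted p = 0.000579, 2.36-fold). Without rat 3 the rise was 1.79, and without rat 1 it was 0.75 (adjusted p = 0.00562). After 2 h of ischemia the rats were at 0.05, 0.15, 0.36 and 0.10 and with αMSH at 0.35, 0.19 and 0.12, all above normal rats 1 to 3, but neither change was called. The rise from 2 h to 8 h was called (0.77, SE 0.25, adjusted p = 0.0185), although rat 3 at 8 h was below every 2 h rat. That call was lost without rat 1 or rat 2 at 8 h and with a replicate block. Cyp51, the lanosterol demethylase of cholesterol synthesis, was at 1.79, 1.57 and -0.24 after 8 h of ischemia against 1.04, 1.27 and 1.17 in normal rats 1 to 3, so 2 rats were above and rat 3 far below. Its change of -0.12 was not called, and without rat 3 it was 0.52 (SE 0.21, adjusted p = 0.0463). Cyp8b1, which makes cholic acid in the liver, was above the floor in 4 of 31 rats.

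The retinoic acid hydroxylase Cyp26b1 was the only member of its class. It was at -1.62, -1.43 and -0.500 after 8 h of ischemia and at -1.35, -2.07 and -2.29 in normal rats 1 to 3, and the groups overlapped. It rose by 0.72 (SE 0.25, adjusted p = 0.0211), and without ischemia 8 h rat 3 the change was 0.38 and was not called (adjusted p = 0.19). It was also lost without normal rat 2 or 3 and with a replicate block. It was at -2.94, -2.42 and -2.42 after 2 h of mercuric chloride and, after 2 h of ischemia, at -1.81, -1.87, -1.99 and -1.58, with no overlap, and this difference was called (0.78 higher in ischemia, SE 0.23, adjusted p = 0.0217). That call was lost without ischemia rat 4 or mercuric chloride rat 1, under quantile normalization (0.638, adjusted p = 0.0621) and with a floor of 0.2 (0.509, adjusted p = 0.0724). Between 2 h and 8 h of ischemia the difference of 0.63 was called (SE 0.23, adjusted p = 0.0335) with the groups overlapping, and it was 0.29 and lost without ischemia 8 h rat 3. It was also lost without ischemia 2 h rat 1, 2 or 3, with a replicate block and with no lot term (adjusted p = 0.0567). The volume depletion rats were at -2.46, -2.50, -2.41 and -2.98, all below normal rats 1 to 3, with a change of -0.69 that was not called (SE 0.23, adjusted p = 0.407).

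Of the steroid hormone enzymes (4 members, 3 tested), none was called in any of the 16 comparisons. Cyp17a1, which opens the route to androgens, was above the array median in every rat on its brighter probe, between 0.27 in ischemia 8 h rat 3 and 1.32 in sham rat 2. The second Cyp17a1 probe had a mean of -2.885 and was above the floor in 26 of 31 rats, so the level of this gene is uncertain. Cyp21a1, needed for glucocorticoids and aldosterone, stayed between -1.53 and -0.85 over all 31 rats, a 1.60-fold range. Cyp11a1, the side-chain cleavage enzyme, was above the floor in 16 of 31 rats, at most at -2.525.

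Comparisons between treated groups called few members. Between 8 h and 2 h of ischemia 4 members were called (13.8%, against 37.7% of probes, 20.5% higher and 17.2% lower), Cyp7b1 and Cyp26b1 higher and Cyp4f6 and Cyp1a1 lower at 8 h. Between ischemia and sham at 8 h there were 2 (6.9%, against 22.9% of probes, 11.9% higher and 11% lower). Between ischemia and mercuric chloride at 2 h there were also 2 (6.9%, against 15.1% of probes, 8.09% higher and 6.98% lower). None was called between ischemia and mercuric chloride at 8 h (11.8% of probes), mercuric chloride and sham at 8 h (13.2%), the times of mercuric chloride (0.729%) or cisplatin and mercuric chloride at 2 h (0.951%). By unadjusted limma p under 0.05 there were 5, 4, 1 and 3 of 29 members in these 4 comparisons, where 24.5%, 24.3%, 9.42% and 11.3% of all probes were. With αMSH against ischemia alone at 2 h, no member and no probe was called by limma (0% of 9458 probes), and 0 members and 342 probes (3.62%) had an unadjusted p under 0.05. The members' median change with αMSH was -0.10, and the median 95% interval reached 0.38 to each side of the change, so differences smaller than about that were within the error.

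Other genes of the P450 system were counted in the same kidneys by the same call. The counts stand beside 20.7% of all probes higher and 20.8% lower after 8 h of ischemia, and 5.25% and 5.63% after 8 h of mercuric chloride, and nothing particular to a list is read from them. Of 7 electron transfer partners, 1 rose and 2 fell after 8 h of ischemia (median -0.27, against 0.01 over all probes). The ferredoxin Fdx2, whose use by P450 enzymes was not measured here, rose by 1.06. Cytochrome b5 Cyb5a fell by 0.75 and Cyb5b by 0.53. Of 8 genes of heme synthesis and breakdown, 2 rose and 3 fell (median -0.275). Heme oxygenase Hmox1, which degrades heme, rose by 5.13 after 8 h of ischemia and by 6.54 after 2 h of mercuric chloride. The synthesis enzyme Alad fell by 0.67, and Alas2, the red cell form of aminolevulinate synthase, rose by 1.92. Of 22 nuclear receptors and partners, 1 rose and 8 fell (median -0.265). Hnf4a, a liver and proximal tubule factor, fell by 1.38, the xenobiotic receptor Nr1i2 (PXR) by 1.12, and the coactivator Ppargc1a rose by 1.21. After 8 h of mercuric chloride none of the 22 rose and 4 fell, with Nr1i2 falling by 1.46.

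Of 16 other targets of Ppara, the fatty acid receptor that induces Cyp4a genes, 1 rose and 8 fell after 8 h of ischemia (median -0.45). The peroxisomal enzyme Ehhadh fell by 2.20, Acsl1 fell by 1.26, and the kinase Pdk4 rose by 1.24, while Cyp4a3 and Cyp4a8 were not called. Of 14 genes of cholesterol synthesis, 4 rose and 2 fell (median 0.10), with Pmvk rising by 1.73, Msmo1 by 1.17 and Fdft1 falling by 0.795. Of 12 tested epoxide hydrolases and eicosanoid enzymes, 5 rose and 2 fell (median 0.39). Soluble epoxide hydrolase Ephx2, which degrades the products of P450 epoxygenases, fell by 1.497, the lipoxygenase Alox15 rose by 1.13 and Hpgd by 0.98. Of 8 tested steroid synthesis genes 3 rose and 3 fell (median -0.73), with Hsd11b2, which inactivates glucocorticoids, falling by 1.44, Hsd3b2 rising by 1.32 and Hsd3b7 by 1.16. Of 5 retinoid genes 2 rose and 1 fell (median 0.69), with Crabp2 rising by 1.28, Rdh10 by 1.07 and Rdh16 falling by 1.78. Of 7 flavin monooxygenases and other oxidases none rose and 4 fell (median -0.60), with Aox1 falling by 1.59, Fmo2 by 1.025 and Fmo1 by 0.89. Each of these named changes passed limma's adjusted p of 0.05.

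Markers of cell types also moved in the 8 h ischemia kidneys. Of 7 proximal tubule markers none rose and 5 fell, and their summed level was 117.5 to 169.7 times the array median against 223.7 to 294.8 in normal rats. The 4 thick limb and collecting duct markers summed to 38.05 to 49.72 against 69.8 to 121.4. In the 8 h mercuric chloride, cisplatin and sham groups 3 of these 4 were measured, so sums in that lot can cover fewer genes. The normal ranges of summed levels given here pool the normal rats of both lots. Of 5 leukocyte markers 2 rose and none fell, with sums of 15.8 to 32.0 against 8.374 to 16.01. Of 4 liver markers Fgb rose, by 1.94, and their summed level was 1.275 to 2.265 against 0.492 to 1.67. None of 4 fat markers was called. The 1 red blood cell marker with a probe, Alas2, rose by 1.92, and the 1 adrenal marker with a probe, Scarb1, which proximal tubule and macrophages also express, rose by 1.18. After 8 h of mercuric chloride 3 proximal tubule markers fell (154.1 to 174.6), and after 2 h 1 fell (185.7 to 192.5). The part of these shifts in the falls of Cyp4f6, Cyp2u1, Cyp2e1 and Cyp3a2, and in the rises of the other called members, was not tested.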

How the data were processed

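Whole kidney RNA of 31 rats was measured on 36 1-colour CodeLink arrays with 9911 probes. The deposited values were found to be 2 to the power of a scaled intensity, on a scale no source used here states, so log2 of a deposited value was taken as the linear intensity; 0.5, at 0.9695% of values, was read as a fill for a missing spot. The authors' normalization software is not given in the sources used here. Each array was divided by its median, floored at 0.1 and put on the log2 scale, and the 2 arrays of a rat were averaged. The values of sham rat 3 correlated at 0.0652 with the median of the other arrays as deposited and at 0.984 after being moved by 2 lines. The lots, of 24 and 12 arrays, are an assumption: the design text gives 3 normal kidneys per lot, the labels name 5 normal rats, and the lot of an array is not named.

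Group and lot were fitted over all rats with limma 3.58.1 in R 4.3.3 (lmFit, eBayes), with Benjamini-Hochberg adjustment over the probes measured in at least 2/3 of rats and in at least 2 rats of each group, and above the floor in at least 3 rats. Comparisons across lots run through the normal rats of both. The script was tested on simulated data. Nothing in the labels says whether rats of a group were treated on separate days. The p-values set group differences against the spread between these rats, and the number of rats limits the precision. The main fit did not pair rats by replicate number, and whether the numbers pair them is not settled here. All called members were to be named, with values per rat for the 10 with the largest changes, and up to 3 called genes per companion list. The members, lists and tests were chosen with earlier results of these data known. Alternatives were quantile normalization, other floors, no lot term, the first array only, a replicate block, sham rat 3 as deposited and each rat left out. Podocyte markers had no probe here. Promoters are RefSeq's, build GRCr8, matched by symbol.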

Additional observations from a re-analysis of the deposited data

Results flagged for a closer look

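Among 87 groups of 4 or 5 rats examined for the P450 genes, 9 held a rat far from the others. Chance gives about 1 in 20 for values with no floor in a group of 1 lot, and that rate does not hold for genes mostly at the floor or for normal rats, which came from both lots. All values are log2 levels relative to the array median. Cyp8b1 accounted for 3 of them, where any single rat above the floor is marked because all others of its group are at it: normal rat 3 (-3.115), ischemia 2 h rat 4 (-3.084) and volume depletion rat 1 (-3.055). In the volume depletion group, rat 4 was low for Cyp26b1 (-2.979) and Cyp2a2 (-0.438), and rat 3 was high for Cyp2j3 (-2.058). Normal rat 11 was high for Cyp11a1 (-3.199) and normal rat 2 for Cyp21a1 (-0.848). Ischemia 2 h rat 3 was nearest to normal for Cyp2u1 (-0.189), and the fall of Cyp2u1 without that rat was -0.466.

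Treated groups differed from each other by limma in 8 cases. Between 8 h and 2 h of ischemia the differences (log2) were -0.902 for Cyp4f6, -0.768 for Cyp1a1, 0.767 for Cyp7b1 and 0.63 for Cyp26b1. Between ischemia and sham at 8 h they were -0.998 for Cyp4f6 and 0.795 for Cyp1b1. Between ischemia and mercuric chloride at 2 h they were 0.778 for Cyp26b1 and -0.637 for Cyp2u1.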

How the results depend on the processing

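Counts of called P450 genes are given with the share of all probes called under the same alternative, except where each rat was left out. With no lot term they were 3 (17.1% of probes) for ischemia with αMSH, 4 (10.8%) and 3 (22.6%) for mercuric chloride at 2 h and 8 h against normal and 6 (17.2%) between its times. They were 11 (44.2%) for ischemia against sham, 8 (32.9%) for ischemia against mercuric chloride at 8 h, 6 (23.4%) for cisplatin against mercuric chloride and 12 (66.1%) by the F test. Quantile normalization gave 7 (38.7%) between the times of ischemia, 1 (1.62%) between those of mercuric chloride, 2 (16%) for mercuric chloride against sham and 1 (13.7%) for ischemia against mercuric chloride at 8 h. That last count was also 1 (13.6%) with a floor of 0.2. A floor of 0.05 gave 0 (9.8%) for 8 h of mercuric chloride, and the first array only gave 0 (13.7%) for 2 h of ischemia. With sham rat 3 as deposited, its values beside the wrong probe names, 2 h of ischemia gave 0 (3.11%), 8 h 2 (13.5%), mercuric chloride 0 at 2 h (0.654%) and 0 at 8 h (1.6%). The times of ischemia then gave 1 (9.9%), ischemia against sham 0 (5.23%), ischemia against mercuric chloride at 2 h 1 (2.71%) and the F test 2 (15.3%), and Cyp4f6 against sham was 0.318. An alternative chosen after seeing the data left out 3 arrays together: ischemia 8 h rat 3, normal rat 1 and the first of volume depletion rat 1. It gave 0 (18.8%) for 2 h of ischemia, 1 (16%) for αMSH, 2 for mercuric chloride at 2 h (11.2%) and 8 h (21.4%), 1 (2.33%) between its times, 4 (32%) for ischemia and 3 (23.7%) for mercuric chloride against sham, and 6 (27.2%) and 4 (18.2%) for ischemia against mercuric chloride at 2 h and 8 h.

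Deviations of rats with the same number had a median correlation of 0.032 over 46 pairs, against 0.007 over 120 other pairs. With a replicate block in the lot of normal rats 1 to 3, 2 h of ischemia gave 0 (9.69%), 2 h of mercuric chloride 0 (4.3%) and their comparison 1 (10.4%). The block also lost the calls of Cyp26b1 at 8 h of ischemia against normal and against 2 h. It lost the call of Cyp7b1 between 2 h and 8 h of ischemia too. With each rat left out in turn, counts ranged from 0 to 2 for 2 h of ischemia and for mercuric chloride at 2 h and 8 h, and from 5 (without normal rat 2) to 8 for 8 h of ischemia. Between the times of ischemia they ranged from 4 to 5, against sham from 1 to 4 for ischemia and 0 to 2 for mercuric chloride. Between ischemia and mercuric chloride they ranged from 1 to 3 at 2 h and 0 to 3 at 8 h, and by the F test from 7 to 9. These ranges are given without the share of all probes, so nothing particular to the members is read from them. The causes of these shifts were not tested. Of 196 values of the 20 named changes under alternatives other than leaving out a rat, 158 kept their direction and call, 37 kept only their direction and 1 reversed. These totals include sham rat 3 as deposited, with its values beside the wrong probe names. That setting gave the 1 reversal and many of the 37. The totals also include the 3 arrays left out together after seeing the data.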
